A study of Sus scrofa with 6 samples.

Results

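The mitotic spindle is the microtubule machine that separates chromosomes, and the kinetochore is the protein assembly that joins each chromosome to it. An inner layer of CENP proteins sits on centromeric chromatin, an outer layer with the Ndc80 complex grips microtubules, and checkpoint kinases delay anaphase until every chromosome is attached. In most cell types many of these genes are transcribed mainly in the later phases of the cell cycle, and granulosa cells (GCs), which surround the oocyte, divide while a follicle grows. The genes described here are those whose pig symbol begins with CENP, HAUS, BUB, AURK, NEK, PLK or KNTC, or equals 1 of 20 symbols listed by name for spindle, kinetochore and cell division proteins. By this rule 46 of the 17950 genes in the table were found, 34 by prefix and 12 of the 20 by name. The other 8 listed symbols, *SPC24*, *MAD2L1*, *TPX2*, *PRC1*, *NUSAP1*, *ECT2*, *KIF2C* and *BIRC5*, were not found by symbol. The prefixes also bring in genes that act elsewhere, among them several NEK kinases, *PLK2* and the centriole gene *CENPJ*.

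GCs were aspirated from ovarian follicles of pre-pubertal Landrace gilts, cultured, and infected for 72 h with lentivirus. The pLVX-*RBP4* group received the vector carrying porcine retinol binding protein 4 (*RBP4*) together with ZsGreen, and the CTRL group the same vector with ZsGreen and no insert, so that both groups carry the virus and the fluorescent marker. Each group had 3 libraries, described as biological triplicates, but the table holds 1 value per gene and group in FPKM (fragment counts scaled to transcript length and to the mapped fragments of the library). The spread between libraries is not known from these values, no test between the groups could be made, and no FPKM difference below has a replicate check within them. *RBP4* itself stood at 1.10 FPKM in CTRL GCs and 92.3 FPKM in pLVX-*RBP4* GCs.

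As markers of the cell type, *CYP11A1* (side-chain cleavage enzyme of steroid synthesis) had 673 FPKM in CTRL GCs and 669 FPKM in pLVX-*RBP4* GCs, and *FSHR*, the receptor of follicle-stimulating hormone, had 9.99 and 8.47 FPKM. Of 17 granulosa markers searched, 9 were found, and *CYP19A1*, *FOXL2* and *AMH* were not among them. Genes of stromal cells were also abundant, with *COL3A1* at 525 and 611 FPKM. Of 7 immune markers searched, 4 were found, and their levels were unlike: *CD14* had 42.9 and 48.9 FPKM and *CD68* 4.02 and 4.59 FPKM, whereas *CSF1R* had 0.414 and 0.428 FPKM and *PTPRC* 0.229 and 0.166 FPKM.

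Differences are given as log2(FPKM + 1) in pLVX-*RBP4* GCs minus the same in CTRL GCs, a scale that understates the difference of weakly expressed genes. Ratios are given without the added 1. Of the 46 genes, 43 averaged 1 FPKM or more over both groups, and 35 of these 43 were higher in pLVX-*RBP4* GCs. Over all 12382 genes averaging 1 FPKM or more, 50.2% were higher. The median difference of the 43 genes was 0.18, against 0.0014 over all genes. As a step in FPKM + 1, an increase of at least 25% was reached by 9 of the 43 genes, against 7.11% of all genes, and its mirror image on the log2 scale, a decrease of at least 20%, by 0 of the 43, against 5.31% of all genes. These limits are meant wherever 25% and 20% are named below. In FPKM + 1, at least 1.5-fold upward was reached by 3 of the 43, *HAUS1*, *NDC80* and *MITD1*, against 1.49% of all genes. As a ratio without the added 1 it was reached by 7 of the 43, with *NEK11*, *KIF20B*, *CENPH* and *NUF2* besides, against 2.55% of all genes.

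*NDC80*, *NUF2*, *KIF20B*, *HAUS1* and *MITD1* are 5 of these 9 genes, and they are also on the study's own list of genes that differed between these libraries. They are therefore not independent evidence of a direction. Without them, 4 of 38 genes were at least 25% higher, close to the 7.11% of all genes, 30 of 38 were higher by any amount, and the median difference was 0.15. In FPKM + 1, 0 of these 38 were at least 1.5-fold higher, against 1.49% of all genes. As a ratio without the added 1, only *NEK11* and *CENPH* of the 38 were, against 2.55% of all genes.

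**Figure D1:**
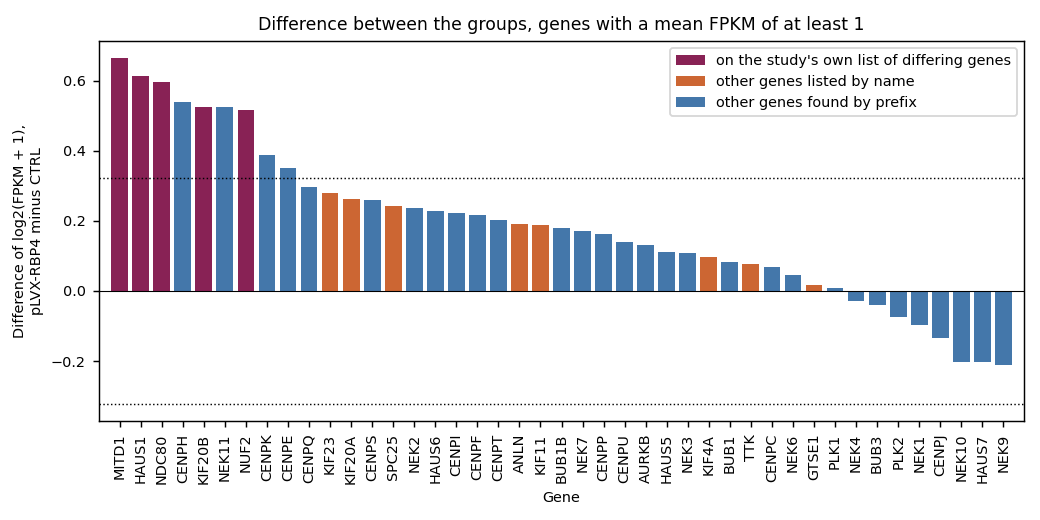
Difference of log2(FPKM + 1), pLVX-*RBP4* minus CTRL, for the 43 genes averaging 1 FPKM or more, in order of size, with dotted lines at 25% higher and 20% lower. Bars run from 0.67 for *MITD1* to -0.21 for *NEK9*, 9 bars pass the upper line, and no bar passes the lower line.

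Most of these genes were expressed at low levels. In the CTRL group the 43 genes ran from 0.868 FPKM for *NEK11* to 264 FPKM for *PLK2* with a median of 5.36 FPKM, and in pLVX-*RBP4* GCs the median was 6.13 FPKM. The median over all genes was 12.1 FPKM in both groups. Only 5 of the 43 genes had a mean of at least 20 FPKM, namely *PLK2*, *NEK7*, *BUB3*, *NEK6* and *NEK9*, and 3 of these 5 were lower in pLVX-*RBP4* GCs. Among the 17 genes with a mean from 1 to 5 FPKM, 16 were higher, 4 by at least 25% and 0 lower by at least 20%, where all genes of this level gave 8.24% and 9.96%. Among the 21 genes with a mean from 5 to 20 FPKM, 17 were higher, 5 by at least 25% and 0 lower by at least 20%, where all genes of this level gave 6.07% and 5.01%. The share of all genes higher by any amount was 50.2% over all levels and was not counted by level. The counts of genes higher or lower by any amount within a level therefore have no share of that level beside them. For single genes from 1 to 5 FPKM the middle 90% of all differences ran from -0.45 to 0.43, and from 5 to 20 FPKM it ran from -0.32 to 0.35, so that 7 of the 43 genes lay above the range of their level and 0 below it. By construction about 5% of all genes of a level lie above such a range and about 5% below it. Of the 7, *MITD1*, *HAUS1*, *NDC80*, *KIF20B* and *NUF2* are on the study's own list. Among the 38 genes not on it, *CENPH* and *NEK11* lay above the range, near that share. Across the 43 genes the difference was weakly related to the level (Spearman's rho -0.25, across genes of the same libraries).

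**Figure D2:**
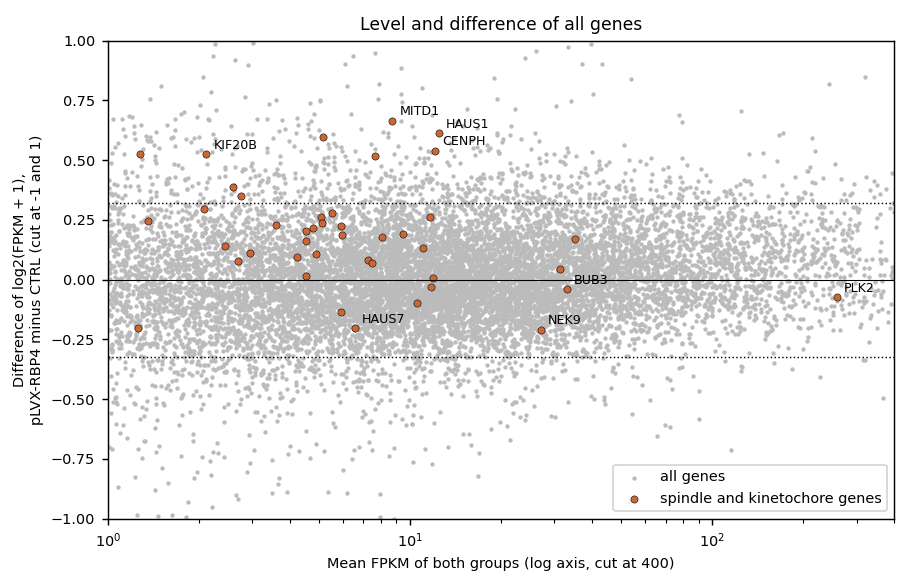
Mean FPKM of both groups (log axis) against the difference of log2(FPKM + 1), pLVX-*RBP4* minus CTRL, for all genes averaging 1 FPKM or more (grey) and the 43 spindle and kinetochore genes (orange), with dotted lines at 25% higher and 20% lower. The orange points lie mostly between 1 and 20 FPKM and above 0, and the 5 points above 20 FPKM lie between -0.21 for *NEK9* and 0.17 for *NEK7*. Points outside the axes are not drawn.

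The Ndc80 complex is a rod of 4 proteins whose NDC80 and NUF2 heads bind microtubules and whose SPC24 and SPC25 end joins the inner kinetochore. Its 3 genes found by symbol were all higher in pLVX-*RBP4* GCs. *NDC80* (ENSSSCG00000003697; Sscrofa10.2 chromosome 6, 97024063 to 97060808) had 3.88 FPKM in CTRL GCs and 6.38 FPKM in pLVX-*RBP4* GCs, a difference of 0.60 and a ratio of 1.64. *NUF2* (ENSSSCG00000006333; chromosome 4, 94875737 to 94907090) had 6.14 and 9.22 FPKM, a difference of 0.52. *SPC25* was weaker, with 1.15 and 1.55 FPKM, and its difference of 0.24 stayed below 25% on this scale, although its ratio without the added 1 was 1.34. The order of the levels, *NUF2* above *NDC80* above *SPC25*, was the same in both groups.

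The CENP genes of the inner kinetochore, which form the network that stays on centromeric chromatin through the cell cycle, gave 10 genes out of 23 symbols searched. Some of the 23 symbols are alternative names of the same gene. All 9 genes averaging 1 FPKM or more were higher in pLVX-*RBP4* GCs, with a median difference of 0.22. *CENPH* had the largest difference, from 9.68 FPKM in CTRL GCs to 14.5 FPKM in pLVX-*RBP4* GCs (0.54, a ratio of 1.502). *CENPK*, a partner of *CENPH* in the same subcomplex, had 2.12 and 3.08 FPKM (0.39). Their further partner *CENPI* had 5.36 and 6.43 FPKM, a difference of 0.22. *CENPQ*, *CENPP* and *CENPU*, which belong to another subcomplex, had differences of 0.30, 0.16 and 0.14 at levels between 1.76 and 4.84 FPKM. The histone-fold genes *CENPS* and *CENPT* had 4.53 and 5.63 FPKM and 4.15 and 4.93 FPKM. The smallest difference was that of *CENPC*, a direct reader of the centromeric nucleosome, with 7.25 and 7.65 FPKM (0.068).

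*CENPL* went the other way, with 1.11 FPKM in CTRL GCs and 0.582 FPKM in pLVX-*RBP4* GCs, a ratio of 0.526. Its mean lay below 1 FPKM, and it is outside the counts above. Among the CENP genes of the outer kinetochore, which load on chromosomes shortly before and during mitosis, the kinesin *CENPE* had 2.30 and 3.21 FPKM (0.35) and the coiled-coil protein *CENPF* 4.33 and 5.19 FPKM (0.22). *CENPJ*, which despite its symbol builds centrioles, had 6.24 and 5.60 FPKM, a difference of -0.13.

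**Figure D3:**
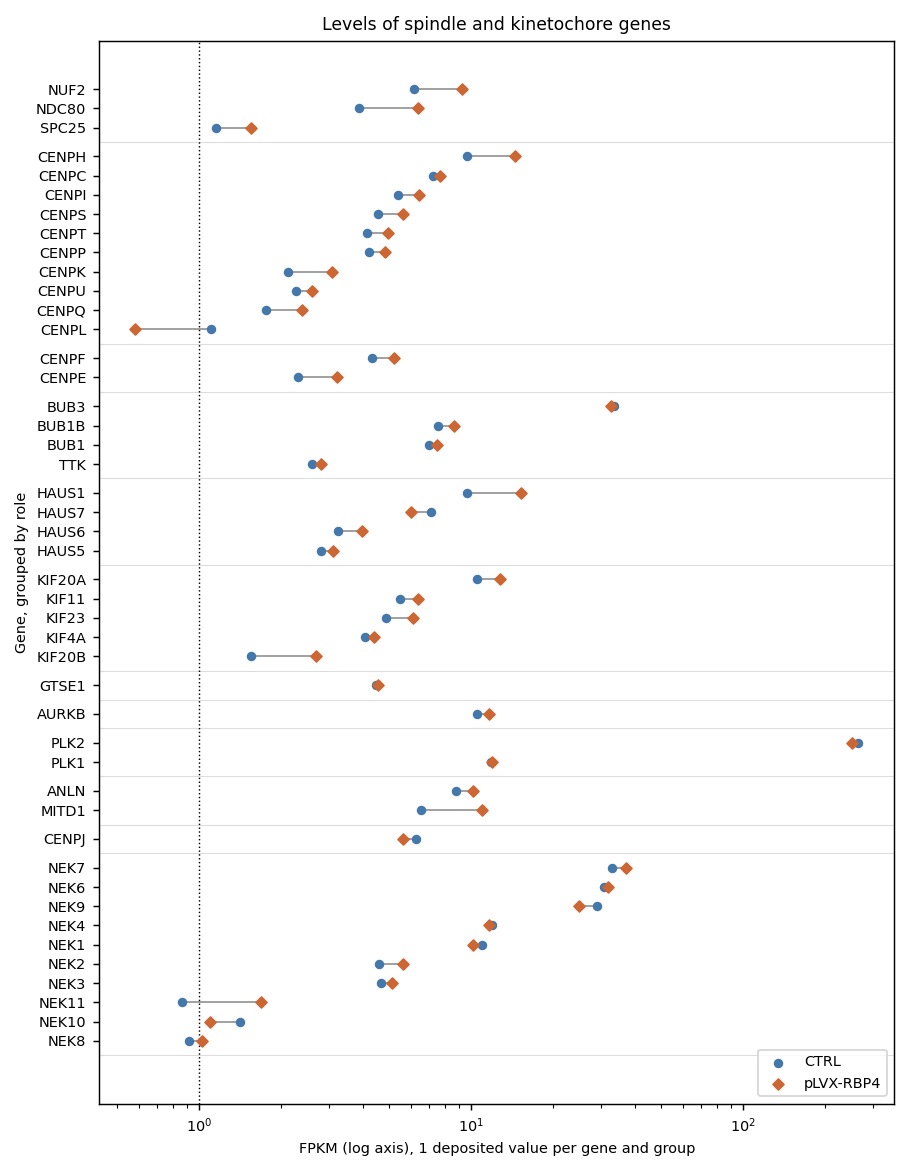
FPKM in CTRL GCs (blue circles) and the pLVX-*RBP4* group (orange diamonds) on a log axis, for 45 genes sorted by role and level, with a dotted line at 1 FPKM. *NEK5*, listed at 0 in pLVX-*RBP4* GCs, is not drawn. In the Ndc80 complex and the mitotic kinesins every diamond lies to the right of its circle, in the NEK kinases diamonds lie on both sides, and *CENPL* is the inner kinetochore gene whose diamond lies to the left.

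The spindle checkpoint genes had small differences. The kinase *TTK*, which starts checkpoint signalling at unattached kinetochores, had 2.60 FPKM in CTRL GCs and 2.80 FPKM in pLVX-*RBP4* GCs (0.077). *BUB1*, a kinase that *TTK* brings to kinetochores, had 6.99 and 7.47 FPKM (0.083). *BUB1B*, a component of the complex that inhibits the anaphase-promoting complex, had 7.52 and 8.65 FPKM (0.18). Their common partner *BUB3* was the most abundant of the 4 and was slightly lower in pLVX-*RBP4* GCs, with 33.5 and 32.6 FPKM (-0.040), a sign that turned to 0.038 when both groups were rescaled to the same sum. At least 25% higher were 0 of these 4 genes, against 7.11% of all genes, so that a count of 0 in so short a list does not set it apart.

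Augmin, an 8-subunit complex of HAUS proteins that seeds new microtubules on the sides of existing ones, was found with 4 of its 8 genes, and they did not share a direction. *HAUS1* (ENSSSCG00000004498; chromosome 1, 105919749 to 105938090) had 9.62 FPKM in CTRL GCs and 15.2 FPKM in pLVX-*RBP4* GCs, a difference of 0.61 and a ratio of 1.58. *HAUS6*, the subunit linked to the gamma-tubulin ring, had 3.24 and 3.97 FPKM (0.23), and *HAUS5* had 2.81 and 3.12 FPKM (0.11). *HAUS7* was lower in pLVX-*RBP4* GCs, with 7.09 and 6.03 FPKM (-0.20).

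The mitotic kinesins are motor proteins that shape the spindle and its central zone, and all 5 found were higher in pLVX-*RBP4* GCs, with a median difference of 0.26. *KIF20B* (ENSSSCG00000010457; chromosome 14, 110499117 to 110581337), a motor of late cytokinesis, had 1.55 FPKM in CTRL GCs and 2.68 FPKM in pLVX-*RBP4* GCs, a difference of 0.53 and, as a ratio, 1.72. *KIF23*, part of the centralspindlin complex that organises the central spindle, had 4.87 and 6.13 FPKM (0.28). *KIF20A*, which carries passenger proteins to the same zone, had 10.5 and 12.8 FPKM (0.26). *KIF11*, the motor that pushes the spindle poles apart, had 5.48 and 6.38 FPKM (0.19). The chromosome-arm kinesin *KIF4A* had the smallest difference, with 4.06 and 4.41 FPKM (0.097). *KIF20B* was thus the weakest of the 5 by level and had the largest difference, and *KIF20A* was the strongest by level.

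The genes of cytokinesis, the final split of the daughter cells, were *ANLN* and *MITD1*. *MITD1* (ENSSSCG00000008185; chromosome 3, 57688478 to 57703819), which binds membrane-cutting proteins at the last bridge between daughter cells, had 6.52 FPKM in CTRL GCs and 10.9 FPKM in pLVX-*RBP4* GCs. On the log2(FPKM + 1) scale its difference of 0.67 was the largest of the 43 genes and 126th among the 12382 genes. As a ratio its 1.68 was below the 1.94 of *NEK11* and the 1.72 of *KIF20B*. *ANLN*, a scaffold of the contractile ring, had 8.79 and 10.17 FPKM (0.19).

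*MITD1* and *KIF20B* are the genes of this set for which the study also listed RT-qPCR primers, shown here 5′ to 3′ because they define which transcripts that assay read. The study ran it on RNA of biological repetitions and reports both genes as upregulated in the pLVX-*RBP4* group. Whether that RNA was separate from the sequenced RNA is not stated. The letters are all in lower case, since no base is singled out.
MITD1 forward: gagtcacggtatccacaagc
MITD1 reverse: tgtttcatctttggtgcctttc
KIF20B forward: tctccagtaacgcacagaaag
KIF20B reverse: gttcagtttcaaccttgccag

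The regulatory mitotic kinases and *GTSE1* differed little between the groups. *PLK1*, the polo-like kinase that acts at centrosomes, kinetochores and the midzone, had 11.9 FPKM in both groups (0.0088). *AURKB*, the catalytic subunit of the chromosomal passenger complex that releases faulty attachments, had 10.5 and 11.6 FPKM (0.13). *GTSE1*, a microtubule-tip protein, had 4.48 and 4.54 FPKM (0.017). *PLK2*, a relative of *PLK1* induced by stress and growth signals, was the most abundant gene of the set, with 264 and 251 FPKM (-0.074), and its sign turned on rescaling to the same sum.

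All 11 NEK kinases searched were found, and with 9 of them at a mean of at least 1 FPKM they were divided, 5 higher and 4 lower in pLVX-*RBP4* GCs, with a median difference of 0.045. *NEK2*, which parts the centrosomes at mitotic entry, had 4.60 FPKM in CTRL GCs and 5.60 FPKM in pLVX-*RBP4* GCs (0.24). The members of the spindle cascade differed in sign. *NEK9*, which activates *NEK6* and *NEK7*, had 29.05 and 24.97 FPKM (-0.21), the lowest of the 43 genes on the log2(FPKM + 1) scale, whereas *NEK7* had 32.9 and 37.1 FPKM (0.17) and *NEK6* 30.7 and 31.7 FPKM (0.045). *NEK3* had 4.68 and 5.12 FPKM. *NEK1*, a kinase of cilia, had 11.0 and 10.17 FPKM, and *NEK4* had 11.9 and 11.6 FPKM, with the sign of *NEK4* turning on rescaling to the same sum.

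The remaining NEK genes were near the lower end of the values. *NEK11*, a DNA damage checkpoint kinase, had 0.868 FPKM in CTRL GCs and 1.69 FPKM in pLVX-*RBP4* GCs (0.52, a ratio of 1.94). *NEK10* had 1.41 and 1.10 FPKM (-0.20, a ratio of 0.777). *NEK8* had 0.921 and 1.02 FPKM. *NEK5* (chromosome 11, 16128791 to 16201490) had 0.102 FPKM in CTRL GCs and was listed at 0 in pLVX-*RBP4* GCs. Without the NEK genes, 30 of 34 genes were higher in pLVX-*RBP4* GCs, with a median difference of 0.20.

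Other genes of chromosome segregation, which the symbol rule does not take in, were followed as lists. Of 47 symbols for further kinetochore, spindle and midzone genes, some of them alternative names of the same gene, 33 were found. In pLVX-*RBP4* GCs 24 of the 31 averaging 1 FPKM or more were higher, with a median difference of 0.093. At least 25% higher were 6 of the 31, against 7.11% of all genes, and 0 were at least 20% lower, against 5.31% of all genes. The largest differences were those of *HMMR*, a spindle assembly factor, with 5.18 and 8.57 FPKM (0.63), and *SGO1*, the protector of centromeric cohesion, with 1.74 and 3.001 FPKM (0.55). At the other end, *DSN1* of the Mis12 complex had 1.91 and 1.63 FPKM (-0.15) and *KIF14* 2.86 and 2.57 FPKM (-0.11). Cohesin and condensin, the rings that hold and fold chromosomes, gave 13 genes of which 11 were higher, with a median of 0.17, among them *SMC4* with 9.78 and 13.5 FPKM. Subunits and the co-activator *FZR1* of the anaphase-promoting complex gave 6 of 9 higher, with a median of 0.013 and 0 of 9 past either limit. Beside the same shares, a count of 0 in so short a list does not set these 9 genes apart.

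**Figure D4:**
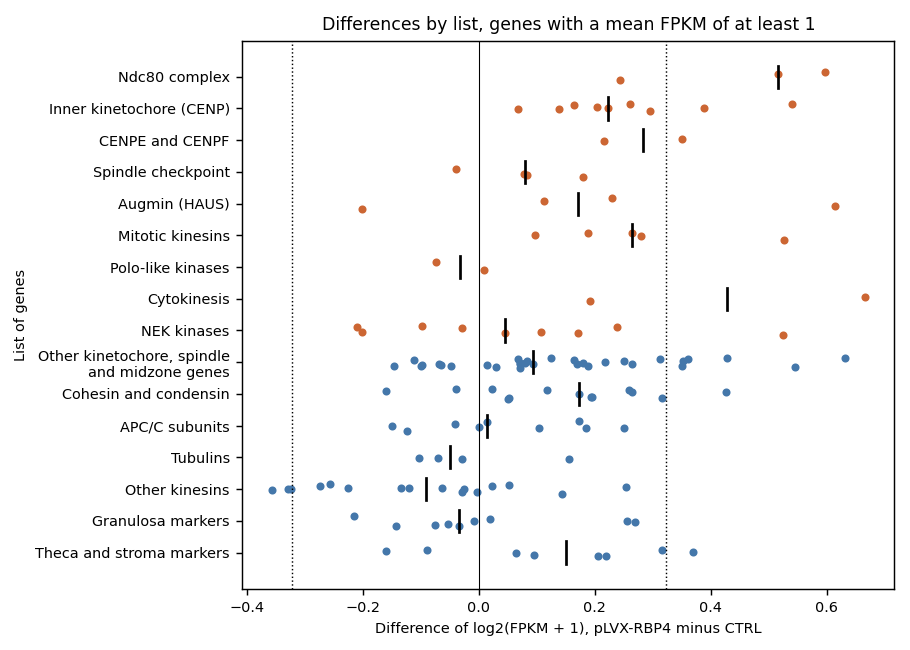
Difference of log2(FPKM + 1), pLVX-*RBP4* minus CTRL, for each gene averaging 1 FPKM or more (points) and the median of each list (bars), with dotted lines at 25% higher and 20% lower. Orange points are genes of the set and blue points are other lists. The bar of the Ndc80 complex stands at 0.52, that of the inner kinetochore at 0.22, that of the NEK kinases at 0.045, and that of the other kinesins at -0.091.

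Markers of other cells moved in part with these genes. Of 8 theca and stroma markers averaging 1 FPKM or more, 6 were higher in pLVX-*RBP4* GCs, with a median difference of 0.15, and the summed level of the 9 markers found was 3248 FPKM in CTRL GCs and 3511 FPKM in pLVX-*RBP4* GCs. *DCN* had 169 and 210 FPKM and *LUM* 6.82 and 9.10 FPKM. *PDGFRA*, with 12.6 and 11.2 FPKM, and *PDGFRB*, with 19.7 and 18.5 FPKM, were the lower ones in pLVX-*RBP4* GCs. *INSL3*, with a mean below 1 FPKM, was listed at 0 in CTRL GCs and had 0.292 FPKM in pLVX-*RBP4* GCs. Of the 9 granulosa markers, 3 were higher, and the median difference on the deposited values was -0.035. Scaling to a common median gave 4 higher and to a common upper quartile 3. Rescaling to the same sum gave 6, where 64.9% of all genes were higher. Together these 9 markers came to 1510 FPKM in CTRL GCs and 1642 FPKM in pLVX-*RBP4* GCs. The rise in this sum was mainly that of *GJA1*, with 675 and 814 FPKM, and 6 of the 9 were lower as deposited. Of the 4 immune markers, *CD14* and *CD68* were higher in pLVX-*RBP4* GCs. *CSF1R*, slightly higher, and *PTPRC*, lower, both had means below 1 FPKM. The 2 endothelial markers found were lower as deposited. The part of such cells in the differences above was not tested, and in these bulk libraries a change in the share of dividing cells cannot be told apart from a change in the RNA per cell.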

How the data were processed

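RNA of 6 GC libraries, 3 per group, was sequenced as paired-end reads. By the study's methods, TopHat2 placed the filtered reads on Sscrofa10.2 and Cuffdiff (Cufflinks) compared the groups. Tool versions and the annotation release are not given in the sources used here. The deposited FPKM values were computed by the authors, with 1 value per gene and group, and both value columns were used. The study's own fold changes, p-values and q-values were not used. With 1 value per group no p-value, SD or interval was computed. The number of reads behind a single value is not known. By the study's sequencing statistics, every pLVX-*RBP4* library had more mapped reads, and a larger mapped share, than every CTRL library. The part of this in the differences was not tested. Among the 865 weakest genes (both values above 0, mean under 0.1 FPKM), the pLVX-*RBP4* to CTRL ratio fell most often between 0.7 and 0.8 (123 genes).

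Symbols came from a table of Ensembl pig gene names (10489 genes) and the study's tables (268 more). Loci and primers were copied from the study's supplementary tables, with starts as listed there. The difference of log2(FPKM + 1) was taken for genes averaging 1 FPKM or more, with a script tested on simulated data.

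The genes, lists and limits were chosen with earlier results of these data known. The text names the listed genes found, prefix genes at least 25% higher or 20% lower in FPKM + 1, the extremes of each role by level and difference and, of other lists, up to 2 genes at either end. Other genes were named after their values were seen. Alternatives were pseudocounts of 0.1 and 0.01, no filter, a mean FPKM of at least 5, 3 scalings and the mean in place of the median. The log2 ratio without a pseudocount and the sets without 5 genes or without NEK genes were added after seeing the data. Python 3.11.15, numpy 2.4.6, pandas 2.3.3, scipy 1.17.1 and matplotlib 3.10.9 were used.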

Additional observations from a re-analysis of the deposited data

How the results depend on the processing

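A median was taken as moved by 0.1 or more on the log2 scale and a count by more than 1.5 times. The median difference of the 43 genes did not move that far under any alternative run, and ranged from 0.15 without the 5 genes on the study's list to 0.25 after rescaling to the same sum. The count of genes at least 20% lower, 0 as deposited, was 1 with a pseudocount of 0.1 or 0.01 and with no pseudocount (*NEK10*), and 1 without a filter on low values (*CENPL*). With a mean FPKM of at least 5, 26 genes were left, of which 19 were higher and 5 at least 25% higher. Without the 5 genes on the study's list, 4 were at least 25% higher, and with no pseudocount 12. Rescaling to the same sum raised the share of all genes that were higher from 50.2% to 64.9%, and the share at least 25% higher from 7.11% to 11.9%, beside 38 and 13 of the 43 genes. *BUB3*, *NEK4* and *PLK2* changed sign under it, and no other of the 43 genes did under the alternatives run. Without a pseudocount the differences of *KIF20B*, *NDC80* and *SPC25* were 0.79, 0.72 and 0.43. No paired analysis was possible because the table holds 1 value per group. Counts near the 1 FPKM limit rest on the weakest values, whose error is not known.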

Other observations

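A list of kinesins outside the spindle lists, taken with the adaptor *KIFAP3*, had a different balance of signs from the 5 mitotic kinesins. Most of them carry cargo along microtubules. *KIF14*, *KIF15*, *KIF18A*, *KIF18B*, *KIF22* and *KIFC1* stood among the further spindle genes above, and all but *KIF14* were higher in pLVX-*RBP4* GCs. Of 21 genes found among the 23 symbols of the list of other kinesins, 16 had a mean of 1 FPKM or more. In pLVX-*RBP4* GCs 4 of these 16 were higher. Scaling to a common median or to a common upper quartile gave 5. Rescaling to the same sum gave 8 of these 16, where 64.9% of all genes were higher. The median difference of the 16 was -0.091, and -0.021 after that rescaling. *KIF1B* had 29.5 FPKM in CTRL GCs and 22.8 FPKM in pLVX-*RBP4* GCs (-0.36), and *KIF1A* had 8.60 and 6.64 FPKM (-0.33). The highest differences were those of *KIFAP3*, an adaptor of kinesin-2, with 32.1 and 38.5 FPKM (0.25), and *KIF5B*, the main motor of kinesin-1, with 77.4 and 85.6 FPKM (0.14). The contrast between the kinesin lists was noticed in the data and was not tested.

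Among the tubulins, the proteins that the spindle is built from, *TUBB* and *TUBA1B* were abundant. *TUBB* had 995 FPKM in CTRL GCs and 975 FPKM in pLVX-*RBP4* GCs (-0.029), and *TUBA1B* had 565 and 630 FPKM (0.16). The others found were weaker, down to *TUBA4A* with 0.308 and 0.393 FPKM. Of 5 tubulin genes found, 4 had a mean of 1 FPKM or more, and 1 of these was higher in pLVX-*RBP4* GCs, or 3 after rescaling to the same sum. *GDF9*, an oocyte gene, had 3.36 and 3.51 FPKM. Of 5 endothelial markers searched, 2 were found. Both had lower values in pLVX-*RBP4* GCs, with 16.3 and 15.99 FPKM for *PECAM1* and 3.55 and 3.03 FPKM for *KDR*. After rescaling to the same sum 1 of the 2 was higher.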
